A study of Homo sapiens with 10 samples.

Results

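The genes described here encode ATP-binding cassette (ABC) transporters that pump drugs and drug conjugates out of cells. Members were all array probes whose gene symbol in the platform annotation was ABCC1, ABCC2, ABCC3, ABCC4, ABCC5, ABCC6, ABCC10, ABCB1 or ABCG2. This gave 6 of the 18665 genes named on the array, from 10 of its 48803 probes and for 6 of the 9 symbols: 3 probes for ABCC5, 2 each for ABCC4 and ABCB1, and 1 each for ABCC2, ABCC10 and ABCG2. ABCC1, ABCC3 and ABCC6 had no probe under their symbol in that annotation and were not analysed here.

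The study measured total RNA of NCI-H441, an established human lung adenocarcinoma cell line, on Illumina HumanWG-6 v3.0 bead arrays. Cells were given CLEFMA, a synthetic curcumin analogue, at 1 µM in DMSO for 12 h (5 arrays, treated), or the same volume of DMSO, 0.1% in every well, for 12 h (5 arrays, control). The labels speak of 4 wells for each condition in the treatment and of 3 biological replicates in the extraction. Taken as written, both are fewer than the 5 arrays, so the arrays of a group cannot all be separate cultures. Which arrays share a culture is not known. Every p-value below therefore rests on the spread among these arrays, part or all of which may be technical.

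ABC transporters use ATP hydrolysis to move their cargo across a membrane. Members of the C subfamily, the multidrug resistance proteins, export organic anions, among them conjugates of glutathione, glucuronic acid and sulfate, while ABCB1 (P-glycoprotein) and ABCG2 (the breast cancer resistance protein) export a wide range of drugs that need not be conjugated first. NRF2, which turns on genes of the electrophile response, is known to act on several of them, and in the lung the pumps are known from airway epithelium and from drug-resistant tumours. In bulk RNA, fewer cells with a transcript and less of it per cell cannot be told apart.

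Because the question of the comparison is whether the compound moved the transcripts of these pumps, the upstream regions of 4 of them are shown with that of ABCB6, the ABC transporter gene that did pass the test. Each run holds 250 bases before and 50 after an annotated RefSeq start in GRCh38.p14, in the direction of the gene. Capitals mark matches to TGACNNNGC, the core of the antioxidant response element that NRF2 binds, searched on both strands, and for ABCC10 the window with a match is shown. The windows are ABCC2 (chr10:99782390-99782689, plus strand), ABCC4 (chr13:95301402-95301701, minus strand), ABCC5 (chr3:184017835-184018134, minus strand), ABCC10 (chr6:43427291-43427590, plus strand) and ABCB6 (chr2:219218909-219219208, minus strand).
ABCC2: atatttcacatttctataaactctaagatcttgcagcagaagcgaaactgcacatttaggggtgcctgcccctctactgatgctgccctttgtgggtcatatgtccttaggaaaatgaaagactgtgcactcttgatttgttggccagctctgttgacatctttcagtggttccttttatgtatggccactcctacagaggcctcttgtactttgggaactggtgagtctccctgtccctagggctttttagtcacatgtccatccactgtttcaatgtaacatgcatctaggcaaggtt
ABCC4: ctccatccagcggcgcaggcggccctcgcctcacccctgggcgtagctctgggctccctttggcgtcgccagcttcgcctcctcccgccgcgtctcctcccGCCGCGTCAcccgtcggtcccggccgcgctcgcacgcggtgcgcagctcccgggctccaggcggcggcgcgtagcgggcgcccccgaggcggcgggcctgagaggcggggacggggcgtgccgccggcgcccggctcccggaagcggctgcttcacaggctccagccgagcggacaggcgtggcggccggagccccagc
ABCC5: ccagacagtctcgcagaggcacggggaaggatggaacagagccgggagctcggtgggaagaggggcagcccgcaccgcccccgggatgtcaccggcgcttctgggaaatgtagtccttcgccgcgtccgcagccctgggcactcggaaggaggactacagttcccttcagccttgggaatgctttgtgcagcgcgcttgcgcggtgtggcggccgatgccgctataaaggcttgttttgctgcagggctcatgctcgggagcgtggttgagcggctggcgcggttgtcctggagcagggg
ABCC10: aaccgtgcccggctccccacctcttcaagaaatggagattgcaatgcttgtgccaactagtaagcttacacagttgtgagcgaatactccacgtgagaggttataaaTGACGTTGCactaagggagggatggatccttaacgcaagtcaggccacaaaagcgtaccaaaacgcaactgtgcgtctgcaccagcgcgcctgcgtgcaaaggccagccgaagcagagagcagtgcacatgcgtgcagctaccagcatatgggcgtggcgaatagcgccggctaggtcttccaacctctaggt
ABCB6: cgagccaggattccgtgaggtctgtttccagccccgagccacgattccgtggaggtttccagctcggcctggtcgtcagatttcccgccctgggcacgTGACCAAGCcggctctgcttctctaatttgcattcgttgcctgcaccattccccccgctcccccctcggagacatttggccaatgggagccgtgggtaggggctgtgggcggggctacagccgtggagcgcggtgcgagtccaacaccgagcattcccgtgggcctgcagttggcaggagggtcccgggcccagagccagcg

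The motif was found in the ABCC4 window, on the opposite strand and beginning 149 bases before the start, in the ABCC10 window 143 bases before it, and in the ABCB6 window 152 bases before it. The windows of ABCC2 and ABCC5 held none. That of UGDH, a conjugating enzyme gene described below that also passed as higher, was searched as well and held none. Windows were listed for 7 of the 9 genes, 14 in all because several starts are annotated for some genes, and 3 of the 14 held a match, the remaining one at a start of ABCG2. Of all 35116 promoter windows of the same length, 13.3% held the motif. Of the bases shown, 45.0% were G or C for ABCC2, 79.7% for ABCC4, 65.7% for ABCC5, 54.3% for ABCC10 and 65.7% for ABCB6. A match describes these letters only.

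None of the 6 measured efflux transporter genes passed the test over all genes. ABCB6, a related transporter of porphyrins, rose 2.27-fold, a call that held in 10 of 21 alternatives. Whether ABCB6 and the 6 genes differed in response was not tested. The most separated gene was ABCC5, whose log2 difference of 0.58 had a 95% interval of 1.17-fold to 1.91-fold. ABCC4 was at 1.24-fold, ABCG2 at 1.14-fold and ABCC10 at 0.940-fold of control. The probes of ABCC2 and ABCB1 were above background on only 6 of 10 arrays each, and no fold is given for them. Groups were compared with limma on log2 of the deposited value in linear units plus 3, quantile normalized between arrays, a scale that understates the change of dim genes. For a gene with several probes, the one with the highest mean level stood for it. At an adjusted p under 0.05, 0 of the 6 genes were higher and 0 lower, against 0.265% and 0.0338% of all 17752 genes tested. At an unadjusted p under 0.05, 3 of the 6 were higher (ABCC5, ABCC2 and ABCC4) and 0 lower, against 4.48% of all genes in each direction. That count was 1, ABCC5, without control 2, control 4, treated 1 or treated 5, and it ranged from 1 to 4 over the 21 alternatives. ABCC5 kept an unadjusted p under 0.05 in all 21, ABCC2 in 13 and ABCC4 in 11. The median log2 difference of the 6 was 0.24, against 0.0067 over all genes, and 4 of the 6 were positive, against 51.5%. Positive differences were as frequent among the other ABC transporters (24 of 35) and the conjugating enzymes (33 of 46) described below. With an offset of 12 units in place of 3, the median of the 6 was 0.095. In the fit of single probes, 0 of the 10 passed as higher or as lower, against 0.132% and 0.0179% of the 44606 probes that passed the filter on low values. All 10 member probes passed that filter. The groups did not overlap on 1 of the 10, as higher, and on 0 as lower, against 0.998% and 0.717% of the probes that passed.

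**Figure D1:**
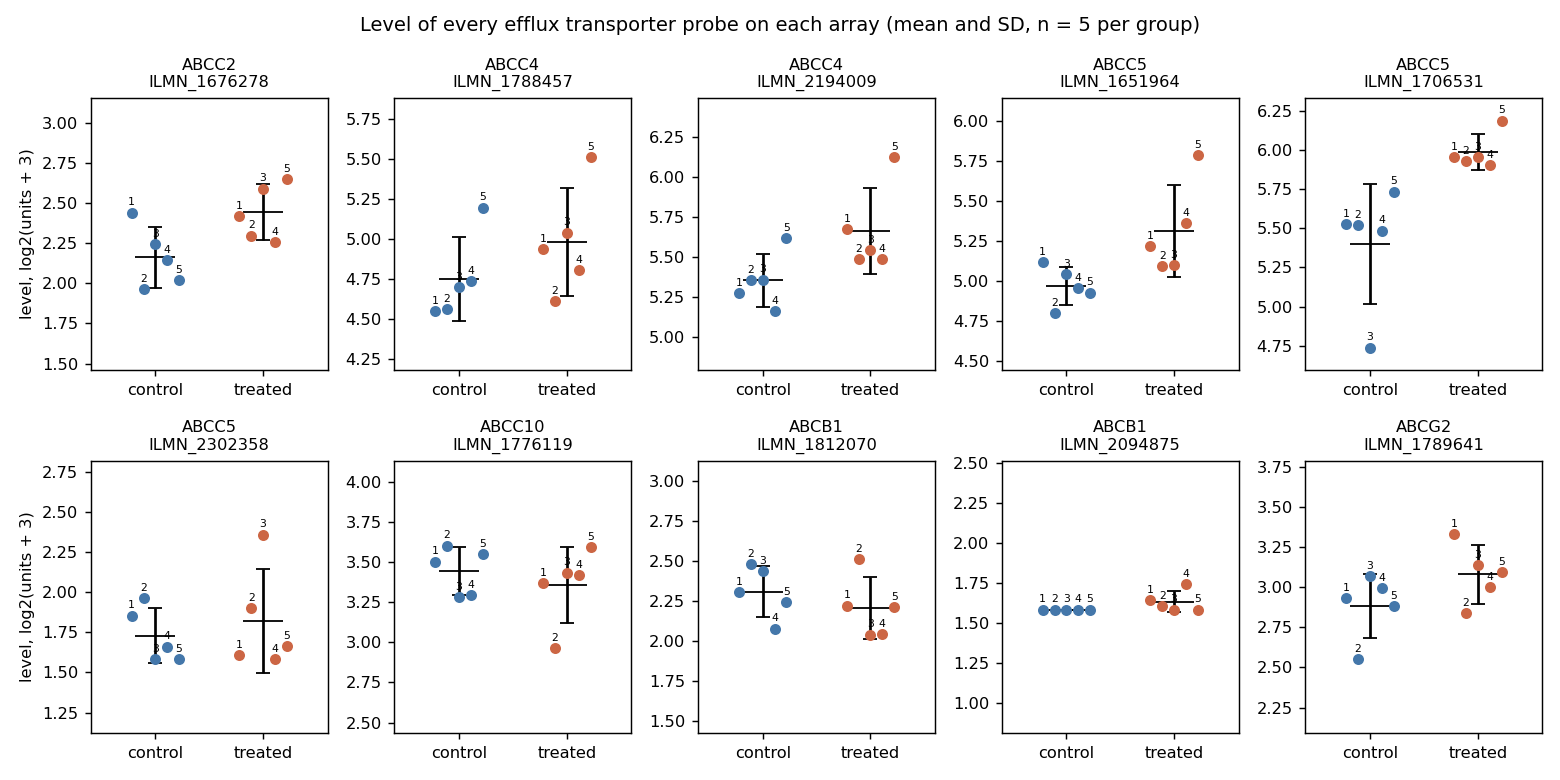
Level of each of the 10 efflux transporter probes on every array, as log2 of the value in table units plus 3 (vertical axes, a separate range for each probe), for control and treated cells. Numbers beside points are replicate numbers, and the black bars give the mean and SD of 5 arrays. The lead ABCC5 probe, ILMN_1706531, is the only probe whose groups do not overlap, with control 3 at 4.74 below the other controls.

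ABCC5 exports cyclic nucleotides and nucleotide analogues as well as other organic anions. On its brightest probe, ILMN_1706531, the log2 levels of controls 1 to 5 were 5.53, 5.52, 4.74, 5.49 and 5.73. Treated arrays 1 to 5 were at 5.96, 5.93, 5.95, 5.90 and 6.19. Every treated array was above every control, and control 3 stood well below the other controls. Such a separation was seen for 1 of the 6 genes, against 1.46% of all genes as higher, and for 0 of the 6 as lower, against 1.04%. The log2 difference was 0.58 ± 0.16 (SE, n = 5 arrays per group), which did not pass in limma (adjusted p = 0.287, ranked 219 of the 17752 genes by p). Without control 3 the difference was 0.42 and still did not pass in limma (adjusted p = 0.140). Over all probes that passed the filter, the mean correlation of control 3 with other arrays was 0.978, and that of the other 9 arrays was between 0.986 and 0.990.

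A second ABCC5 probe, ILMN_1651964, had control log2 levels of 5.12, 4.80, 5.04, 4.96 and 4.93 on arrays 1 to 5. The treated levels were 5.22, 5.09, 5.10, 5.37 and 5.79. Treated 2 and 3 lay below control 1, so the groups overlapped, and treated 5 was the highest array. The log2 difference was 0.34 ± 0.13 and did not pass in limma (adjusted p = 0.588), and it was 0.22 without treated 5, where it did not pass either. The third ABCC5 probe, ILMN_2302358, was above background, taken as a deposited log10 value above 0.2, on 0 control arrays and 1 treated array, so its values carry no fold. Averaged over its 3 probes, ABCC5 differed by 0.34 (limma adjusted p = 0.282). The responses of the 2 bright probes differed by 0.24, with an exact two-sided permutation p of 0.278. Their deviations from the group means had a Pearson correlation of 0.10 over the 10 arrays, which is given as a description. The platform annotation pairs ILMN_1706531 with a different RefSeq transcript of ABCC5 than the other two.

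ABCC4 exports cyclic nucleotides, prostaglandins and drug conjugates. Its brighter probe, ILMN_2194009, had control log2 levels of 5.27, 5.36, 5.36, 5.16 and 5.62 and treated levels of 5.67, 5.49, 5.54, 5.49 and 6.12. Only treated 1 and treated 5 exceeded control 5, while all 5 treated arrays exceeded the control median. The difference of 0.31 ± 0.13 did not pass in limma (adjusted p = 0.534). The arrays numbered 5 were the highest of each group, and the difference was 0.19 without treated 5 and 0.38 without control 5, passing in neither.

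The other ABCC4 probe, ILMN_1788457, ranged from 4.55 to 5.19 over controls and from 4.61 to 5.51 over treated arrays. It was again highest on control 5 and treated 5. Its difference was 0.23 ± 0.17 (limma adjusted p = 0.772), and 0.098 without treated 5. Deviations of both ABCC4 probes from their group means had a Pearson correlation of 0.87 over the 10 arrays. The responses of these probes differed by 0.08, with an exact two-sided permutation p of 0.460.

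ABCC2 exports conjugates at the apical surface of polarized epithelia and is a known NRF2 target in liver cells. Its probe was dim, being above background on 1 of 5 control arrays and on all 5 treated arrays. Control log2 levels on arrays 1 to 5 were 2.44, 1.96, 2.25, 2.15 and 2.02, and treated levels were 2.42, 2.30, 2.59, 2.26 and 2.65. Control 1 lay above treated 1, 2 and 4, so the groups overlapped. In the deposited table's linear units the means were 1.45 in control and 2.53 in treated cells, against a background limit of 1.58 units. The control mean lay below that limit, so the ratio of these means is not a measured fold. The log2 difference was 0.28 ± 0.12 and did not pass in limma (adjusted p = 0.515). It ran from 0.10 with an offset of 12 units to 0.85 on the deposited values with no offset, and it passed under none of the 21 alternatives.

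ABCC10 is a lysosomal and plasma membrane pump known for resistance to taxanes. Its log2 levels were 3.50, 3.60, 3.28, 3.29 and 3.55 in controls and 3.37, 2.97, 3.44, 3.42 and 3.60 in treated cells. Treated 2 was the lowest array, and the other 4 treated arrays lay within the control range. The difference was −0.09 ± 0.12 (limma adjusted p = 0.827), with a 95% interval of −0.36 to 0.18, and it changed sign without treated 2. A rise of the size fitted for ABCC5 lies outside that interval.

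ABCG2 exports porphyrins, urate and many drugs. The control levels of its probe were 2.93, 2.55, 3.07, 2.99 and 2.88 on the log2 scale, and the treated levels 3.33, 2.84, 3.14, 3.00 and 3.10. The groups overlapped, with 3 of 5 treated arrays above all controls. The difference of 0.19 ± 0.12 did not pass in limma (adjusted p = 0.627), and its 95% interval ran from −0.07 to 0.46. Over the alternatives the difference lay between 0.09 and 0.35 and did not pass.

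ABCB1, the pump of classic multidrug resistance, was near background. Its brighter probe, ILMN_1812070, was above background on 4 control and 2 treated arrays, with levels of 2.08 to 2.48 in controls and 2.04 to 2.51 in treated cells. Both ranges nearly coincided. The difference was −0.10 ± 0.11 (limma adjusted p = 0.781), with a 95% interval of −0.35 to 0.15. The other probe, ILMN_2094875, was above background on 0 of 10 arrays, so no change could be measured there.

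**Figure D2:**
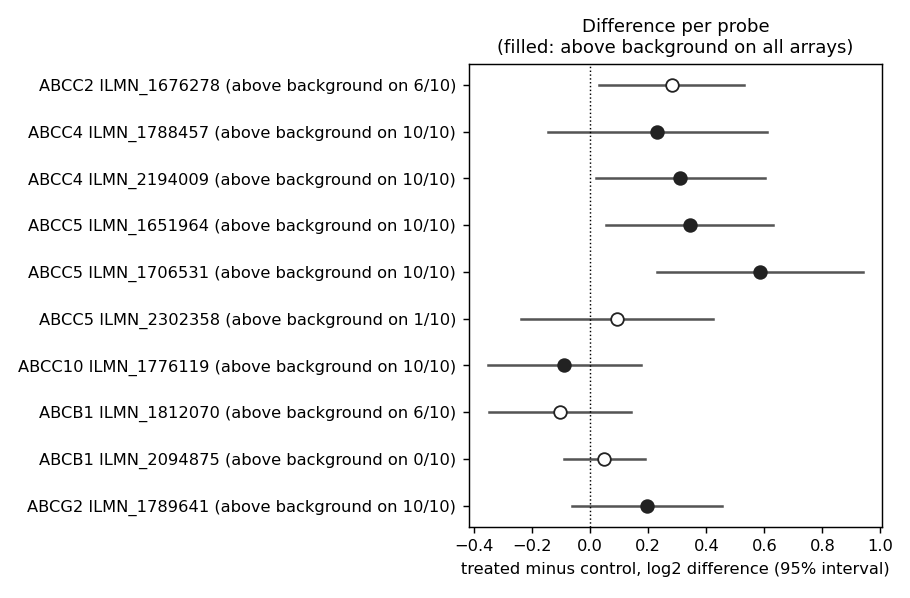
Treated minus control log2 difference of each efflux transporter probe (horizontal axis) with its 95% interval from limma, not adjusted for the number of probes. Filled points are probes above background on all 10 arrays, open points the dimmer ones. The intervals of the ABCC10, ABCB1 and ABCG2 probes, of 1 of 2 ABCC4 probes and of the dim ABCC5 probe include 0.

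Differences in response between genes were tested for the 4 member genes above background on all 10 arrays, as the change of their log2 difference within each array. This gave 6 pairs, tested with the exact two-sided permutation test over all splits of the arrays into 5 and 5, and adjusted over the pairs. ABCC5 changed more than ABCC10, by 0.67 (exact permutation p = 0.00794, adjusted p = 0.0476), and ABCC4 more than ABCC10, by 0.40 (exact permutation p = 0.0159, adjusted p = 0.0476). The ABCC5 and ABCC10 pair kept an adjusted p under 0.05 in 15 of 16 alternatives. The exception was the set without control 3 and both arrays numbered 5 (0.59, exact permutation adjusted p = 0.0857). Fewer arrays limit the exact p there, so that failure does not show that the difference was lost. The call for ABCC4 and ABCC10 held in 6 of 16, and was lost without control 1, 2, 4 or 5 and without treated 2 or 5. It was also lost under 4 other alternatives, the set with fewer arrays among them. Over these losses the exact permutation adjusted p was up to 0.143. The other 4 pairs did not pass. ABCC4 and ABCC5 differed by −0.27 (adjusted p = 0.171 by the exact permutation test) and ABCC5 and ABCG2 by 0.39 (adjusted p = 0.171 by the exact permutation test). Without control 3 the first of these was −0.11 and the second 0.18, neither passing. With an offset of 12 units ABCC5 and ABCG2 did pass, at 0.40 (adjusted p = 0.0317 by the exact permutation test). That the other pairs did not pass does not show that they responded alike.

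The remaining ABC transporters carry lipids, peptides, heme precursors, ions and other cargo. Of 39 genes listed, 35 were measured. Of these, 1 rose and 0 fell, against 0.265% and 0.0338% of all genes, and 34 did not pass. The median log2 difference of the 35 was 0.09, against 0.0067 over all genes. ABCB6, known as a porphyrin transporter of mitochondria and other membranes, had control log2 levels of 4.85, 4.69, 4.84, 4.68 and 4.99. Its treated levels were 5.84, 5.78, 5.74, 5.73 and 6.87. All treated arrays were above all controls, a separation seen for 1 of the 35 genes, against 1.46% of all genes. Treated 5 was about 1 log2 unit above the other treated arrays. The difference was 1.18 ± 0.20 (limma adjusted p = 0.0270), and 0.96 without treated 5 (limma adjusted p = 6.34e-04). It did not pass without any of controls 1 to 4 or treated 1 to 4 (limma adjusted p of 0.0517 to 0.0982), nor over all probes (limma adjusted p = 0.0595).

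By subfamily, the 8 measured C members, including CFTR and the sulfonylurea receptors, had a median of 0.25 with 6 positive. All 5 G members were positive, from 0.10 for ABCG1 to 0.21 for ABCG8, and 51.5% of all genes were positive. The ABCG8 probe was above background on only 1 array, so its value carries no fold. No G member had an unadjusted limma p under 0.05. The 12 A members lay between −0.08 and 0.20 around a median of 0.03. The lowest A value was that of ABCA5, whose probe was above background on no array. The 9 B members, which include the peptide transporters TAP1 and TAP2, had a median of 0.09. ABCD3, a peroxisomal fatty acyl-CoA transporter, had the most negative value of the family, −0.37 ± 0.13 (limma adjusted p = 0.435). No subfamily other than B held a gene that passed.

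**Figure D3:**
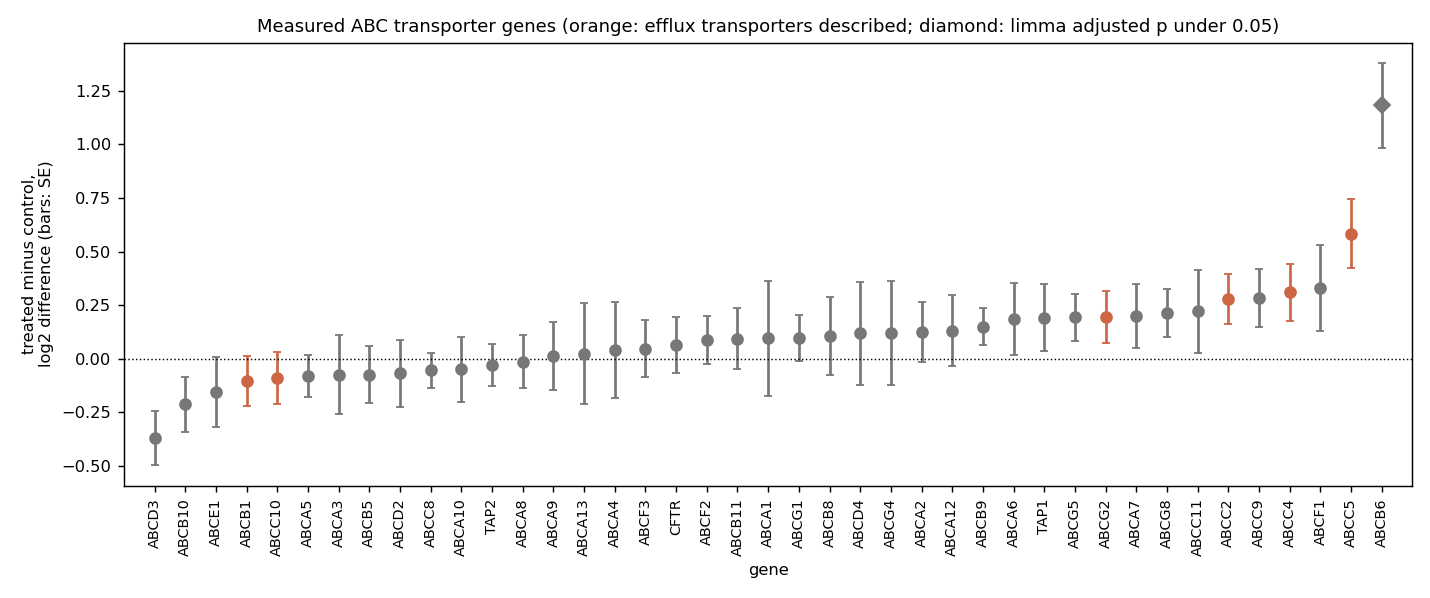
Treated minus control log2 difference (vertical axis, bars show the SE) of the 41 measured ABC transporter genes in order of size. Orange points are the 6 efflux transporters described here, grey points the other 35, and the diamond is ABCB6, which alone passed at a limma adjusted p under 0.05. ABCC5 at 0.58 lies next to ABCB6 at 1.18.

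Enzymes that make the conjugates exported by these pumps were listed as glucuronosyltransferases, sulfotransferases, glutathione S-transferases and their cofactor enzymes. Of 48 listed, 46 were measured. Of these, 1 rose and 0 fell, against 0.265% and 0.0338% of all genes, and 45 did not pass. The median difference of the 46 was 0.09 against 0.0067 over all genes. At an unadjusted limma p under 0.05, 9 of the 46 were higher and 1 lower, against 4.48% of all genes in each direction. Among the 9, GSTM1 and GSTM2 had close log2 levels, with control means of 7.813 and 7.865 and treated means of 8.081 and 8.159. Whether their probes measure separate transcripts was not tested. UGDH, which oxidizes UDP-glucose to the UDP-glucuronic acid used in glucuronidation, rose 2.32-fold. Its levels ran from 8.01 to 8.59 in controls and from 9.10 to 9.94 in treated cells, without overlap (log2 difference 1.21 ± 0.16, limma adjusted p = 0.00547). GSTA4, a glutathione S-transferase for lipid aldehydes, was the next in size, at 0.61 ± 0.14 (limma adjusted p = 0.191). UGT1A genes share sequence at their 3′ ends, so the probe values of single members are uncertain.

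Among 26 listed solute carriers for organic anions and cations, 22 were measured, with a median of 0.01. Of these, 0 rose and 1 fell, against 0.265% and 0.0338% of all genes, and 21 did not pass. The gene that fell was SLCO2A1, a prostaglandin uptake carrier (log2 difference −0.94 ± 0.14, limma adjusted p = 0.0114). Its difference was −0.46 with an offset of 12 units, where it passed, and −1.46 on the deposited values, where it did not (limma adjusted p = 0.0533). SLCO4C1, an organic anion carrier, was at −0.41 ± 0.19 (limma adjusted p = 0.552). None of the 16 measured of 21 listed regulators and partners of the pumps passed in limma. An unadjusted limma p under 0.05 was seen for 1 as higher and 1 as lower, against 4.48% of all genes in each direction. NFE2L2, the gene of NRF2 itself, differed by −0.44 ± 0.16 (limma adjusted p = 0.464), with control 3 at 9.37 against 8.48 to 8.56 on the other controls. Its treated levels, 8.15 to 8.38, all lay below every control. PIM1, a kinase reported to act on ABCG2, differed by 0.37 ± 0.11 (limma adjusted p = 0.337), with every treated array above every control. Such a separation was seen for 1 of the 16 as higher, against 1.46% of all genes, and for 1 as lower, against 1.04%.

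**Figure D4:**
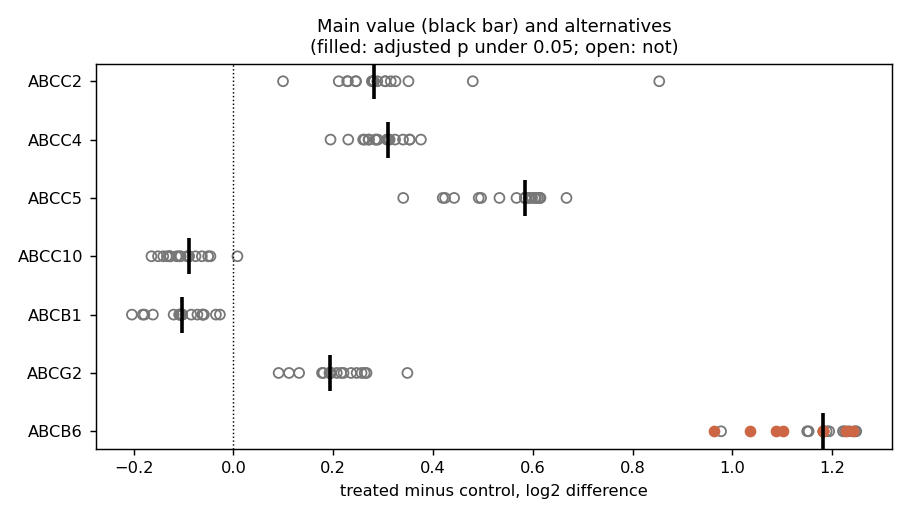
Treated minus control log2 difference (horizontal axis) of the 6 efflux transporter genes and ABCB6 in the main fit (black bars) and under 21 alternatives (points). Filled points passed at a limma adjusted p under 0.05 and open points did not. No point of the 6 efflux transporters is filled, and the values of ABCC10 lie on both sides of 0.

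On each array 49.1% to 53.7% of probes were above background. That limit was a chosen cut near the array medians, which were 0.18 to 0.30 in deposited log10 values. It is not a detection call, so passing it does not show that a transcript was present. Of 13 measured lung epithelial markers, 11 were above background on all 10 arrays, among them EPCAM, NKX2-1 and SFTPB, and SFTPC was above it on none. Their mean log2 level was 8.63 to 8.76 on control and 8.52 to 8.60 on treated arrays. Of the 13, 0 passed, against 0.265% of all genes as higher and 0.0338% as lower. Differences were positive for 2 of the 13 and negative for 11, against 51.5% positive over all genes. An unadjusted limma p under 0.05 was seen for 0 as higher and 2 as lower, against 4.48% of all genes in each direction. Mean levels of 8 fibroblast markers were 3.39 to 3.72 in controls and 3.39 to 3.60 in treated cells, those of 13 leukocyte markers 2.91 to 3.09 and 3.02 to 3.14, and those of 5 endothelial markers 3.04 to 3.43 and 3.14 to 3.31. Of these, 4 of 8 fibroblast, 5 of 13 leukocyte and 3 of 5 endothelial markers were above background on all 10 arrays, among them LUM (control mean 7.28), COL1A1 (6.26), VIM (5.76), CD68 (8.42), KDR (4.74) and TEK (4.44). COL3A1, POSTN and CDH5 were above background on no array, and PTPRC on 5 of 10. The part of these shifts in the values above was not tested. With 5 arrays in each group, precision is limited by their number.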

How the data were processed

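The values analysed are log10 values as deposited, for 48803 probes and 10 arrays. No label or header names the software, the background method or a normalization. That the scale is log10 was inferred from the range of the deposited values, −4.56 to 3.79, and that background was subtracted from the values below 0. A second deposited table has 10 columns whose names match no sample, and it was not used.

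Values were returned to linear units, 3 units were added, and log2 was quantile normalized. The filter kept 44606 probes with a mean above the 25th percentile of all values. Symbols came from the platform annotation, updated by Entrez identifier: 27578 probes had 1 symbol (27541 matched by identifier), 13 had several and 21212 were not listed. Groups, from the sample titles, went into limma 3.58.1 (R 4.3.3) without covariates. Its moderated test was two-sided, with Benjamini-Hochberg adjustment and a threshold of 0.05. Genes outside the members were named if they passed or had 1 of the 2 largest differences of their list among genes above background on all arrays. Others, such as the subfamily extremes and marker genes, were chosen after their values were seen. Since no member passed, no gene was named for a profile like that of a member. The members and lists were chosen with earlier results of these data known. The planned fit was tested on simulated data. Alternatives covered the offset, normalization, filter, probe rule, variance model, a block for the replicate number, weights for arrays, and arrays left out. Those for single probes, pairs of members, regulators, 3 named genes and the count at an unadjusted p were added after the data were seen. Promoter sequences are from RefSeq, and figures were drawn with matplotlib 3.10.9.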

Additional observations from a re-analysis of the deposited data

Results flagged for a closer look

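In 6 of 36 sets of 5 values, 1 array lay far from the rest of its group, with a gap to its nearest neighbour above Dixon's critical value of 0.71 of the group's range. The controls of the ABCB1 probe ILMN_2094875 are counted among the 36 sets but were all equal, so they could not be flagged. Chance alone flags about 1 in 20 such sets, a rate that does not hold where values are tied at the lowest level. On the lead ABCC5 probe this held for control 3, at 4.74 against 5.49 for the nearest control, and for treated 5, at 6.19 against 5.96. ABCB6 was high on treated 5, at 6.87 against 5.84. ABCD3 was low on treated 2, at 4.81 against 5.02. SLCO2A1 was high on treated 1, at 2.87 against 2.58. NFE2L2 was high on control 3, at 9.37 against 8.56.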

How the results depend on the processing

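None of the 126 values of the 6 efflux transporter genes under 21 alternatives, nor of the 196 values of their probes, passed in limma. The nearest was ABCC5 without control 3 and both arrays numbered 5, at 0.42 (adjusted p = 0.0736, with a range of 0.0736 to 0.508 over its alternatives). Its difference ran from 0.34 as the mean over its probes to 0.67 without control 5. With 1 array left out ABCC10 ran from −0.15 without treated 5 to 0.0080 without treated 2, and the dim ABCC5 probe from −0.041 without treated 3 to 0.15 without treated 4. The count of 1 higher gene among the other ABC transporters was 0 with an offset of 12 units, on the deposited values and with no filter, and 0 to 1 with 1 array left out. The count of 1 lower solute carrier was 0 on the deposited values. The count of 2 pairs that differed was 1 under median scaling, on the deposited values and with probe means, 0 without control 3 and both arrays numbered 5, where fewer arrays limit the exact p, 3 with an offset of 12 units, and 1 to 2 with 1 array left out. On the deposited values ABCC4 minus ABCG2 turned to −0.064. The cause was not tested. Same-numbered arrays had correlations of −0.11 to 0.17 in their deviations from the group means, highest for the arrays numbered 5. Of the 5 controls, 2 correlated best with their own number, controls 2 and 5. On both ABCC4 probes the arrays numbered 5 were the highest of their groups. Correlations over all probes cannot settle whether a number marks a shared source, which was not tested. With a replicate block, 0 efflux transporter genes passed, and 40 genes were higher and 5 lower, against 47 and 6 without it. The deposited values gave 26 and 2, and array weights 71 and 16. Dim probes, those of ABCC2 and ABCB1 in particular, limit what could be detected.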

Other observations

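UGP2, which makes the UDP-glucose that UGDH oxidizes, differed by −0.36 ± 0.10 and did not pass in limma (adjusted p = 0.305). Its groups did not overlap, and it was the 1 conjugating enzyme of 46 with that pattern as lower, against 1.04% of all genes, while 5 of the 46 had it as higher, against 1.46%. UGP2 was chosen after its values were seen. The probe of ABCC5-AS1, an antisense transcript at the ABCC5 locus, was above background on 0 of 10 arrays.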
